A study of Mus musculus with 12 samples.

Results

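The genes described here are 47 mouse genes whose products run cell division, from the kinases that start mitosis to the motors, kinetochore proteins and spindle proteins that separate the chromosomes. They were chosen by gene symbol, for their roles, out of 18161 genes on the array that had a probe set naming them alone. The members, and the gene lists set beside them, were chosen with earlier results of these data known. Their counts thus describe these data and are no independent test. All 47 were measured and none was removed by a filter. By role they comprise 10 mitotic kinases and checkpoint genes, 7 genes of cyclins, CDK1 and the switch to anaphase, 8 kinesin motors, 9 genes of the centromere, kinetochore and passenger complex, 10 genes of spindle assembly and cytokinesis, and 3 genes of chromosome structure and transcription.

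The arrays were hybridised with RNA of C4-HD, a mammary carcinoma carried in BALB/c mice under a pellet of MPA (medroxyprogesterone acetate), a progestin. The 12 arrays form 6 groups of 2. In 4 of them the MPA pellet had been taken out at a tumour area of 50 mm2 and replaced by 1 of MFP, given at 10 mg/kg/day, and the tumours were labelled 6 h, 12 h, 24 h and 48 h of MFP. Another was labelled as 48 h of saline, with the source name no MPA, and the last was tumours growing with MPA, against which the others were compared. The labels' protocol also speaks of saline-treated tumours with MPA as controls, so whether the saline group had lost its pellet rests on its source name alone. MFP is mifepristone, which blocks the progesterone receptor. MFP against MPA changes 2 things at once, the loss of MPA and the gain of MFP, and the 6 h group is not named in the series text. The series text speaks of independent replicates, but no label gives an age or ties the arrays of a group to separate animals, so a p-value here reflects how far these samples spread, which may be technical. All groups share the carcinoma and the mouse strain.

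Mitosis is started by CDK1 with its cyclins, helped by the Aurora and Polo kinases. Kinesin motors and microtubule binders then build the spindle, kinetochores hold the chromosomes to it, and a checkpoint delays the anaphase switch until all are attached. Most of these transcripts are made in the second part of the cell cycle, after those of DNA replication, and are low in cells that do not divide. In such cells a repressor complex, DREAM, sits on cell cycle promoters. It is known to reach mitotic genes through an element named CHR, often downstream of CCAAT boxes bound by NF-Y, and replication genes through E2F sites. In C4-HD tumours MPA is known to sustain growth.

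These elements are shown first because CHR and CCAAT letters stand in most members with a promoter window, and the rule that chose the genes did not use them. The members lie on 17 chromosomes. The stretches run from 200 bases before to 30 after a start, as RefSeq gives it on build GRCm38.p6, 5′ to 3′ on the gene's strand. Capitals mark 3 motifs on either strand: CHR, searched as TTTGAA, the box CCAAT, and E2F, searched as TTCCCGC, with its variant TTGGCGC, its variant TTCGCGC and its variant TTGCCGC. Cdc20 activates the anaphase-promoting complex, Cdca8 encodes borealin, Kif11 the motor Eg5, Spc25 a kinetochore subunit and Kif4 a chromosome-bound kinesin. All of these members hold CHR and CCAAT letters and none holds E2F letters, which is not so for every member. Mcm3, a subunit of the replicative helicase, stands for the S-phase genes.
Cdc20 (chr4:118437314-118437543, minus strand): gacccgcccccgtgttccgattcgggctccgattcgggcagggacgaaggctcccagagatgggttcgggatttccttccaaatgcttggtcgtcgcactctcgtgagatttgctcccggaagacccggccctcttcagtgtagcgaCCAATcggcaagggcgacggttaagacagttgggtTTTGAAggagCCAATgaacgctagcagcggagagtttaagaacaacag
Cdca8 (chr4:124936888-124937117, minus strand): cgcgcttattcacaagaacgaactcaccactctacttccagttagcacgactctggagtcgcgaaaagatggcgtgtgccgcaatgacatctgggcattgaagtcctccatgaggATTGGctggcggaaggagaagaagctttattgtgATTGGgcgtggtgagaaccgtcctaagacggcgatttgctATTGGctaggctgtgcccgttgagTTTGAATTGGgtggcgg
Kif11 (chr19:37376182-37376411, plus strand): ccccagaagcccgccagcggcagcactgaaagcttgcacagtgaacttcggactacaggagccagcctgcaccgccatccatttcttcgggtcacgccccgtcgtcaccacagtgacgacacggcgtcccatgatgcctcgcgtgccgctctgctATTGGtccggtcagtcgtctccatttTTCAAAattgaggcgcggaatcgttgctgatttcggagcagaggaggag
Spc25 (chr2:69206184-69206413, minus strand): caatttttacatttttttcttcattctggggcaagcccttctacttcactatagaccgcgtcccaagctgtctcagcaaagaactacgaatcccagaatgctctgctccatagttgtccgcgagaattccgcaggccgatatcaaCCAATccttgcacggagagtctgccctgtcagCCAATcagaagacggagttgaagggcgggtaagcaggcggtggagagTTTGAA
Kif4 (chrX:100625865-100626094, plus strand): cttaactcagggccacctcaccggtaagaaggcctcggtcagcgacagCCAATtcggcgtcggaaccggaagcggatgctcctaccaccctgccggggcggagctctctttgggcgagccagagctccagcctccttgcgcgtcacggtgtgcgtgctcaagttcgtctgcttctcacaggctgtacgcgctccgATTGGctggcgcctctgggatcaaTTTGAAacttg
Mcm3 (chr1:20820283-20820512, minus strand): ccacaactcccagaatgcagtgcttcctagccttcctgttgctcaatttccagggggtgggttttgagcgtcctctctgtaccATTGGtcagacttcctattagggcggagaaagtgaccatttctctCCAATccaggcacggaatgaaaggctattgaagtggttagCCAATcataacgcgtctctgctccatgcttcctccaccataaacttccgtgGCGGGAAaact

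In full windows, 250 bases before to 50 after a start, 39 members had a sequence. CHR letters were found in 30 of these 39 members (76.9%), against 8 of 38 S-phase genes (21.1%) and 2264 of the 14461 genes on the array with a window (15.7%). In 27 of the 30 the nearest match lay within 50 bases of the start, a count made for the members alone and not for other genes. The members with a window but no CHR letters, none of them shown above, were Birc5, Bub1, Cenpe, Kif18a, Mad2l1, Melk, Nek2, Nuf2 and Nusap1. CCAAT letters stood in 29 members (74.4%), against 21 S-phase genes (55.3%) and 42.0% of the genes on the array, and both CHR and CCAAT letters in 26 members (66.7%), 4 S-phase genes (10.5%) and 6.20% of those on the array. E2F letters ran the other way, in 6 members (15.4%), 24 S-phase genes (63.2%) and 16.0% of the array's genes. A gene with several starts counts once where any window matches, and TTGGCGC after an A also holds the reversed CCAAT. Matches are letters in a sequence and say nothing of binding, and no test was made of these shares. The windows of the other 8 members (Aurkb, Ccna2, Dlgap5, Foxm1, Incenp, Kif20a, Pbk and Tpx2) were not analysed here.

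**Figure D1:**
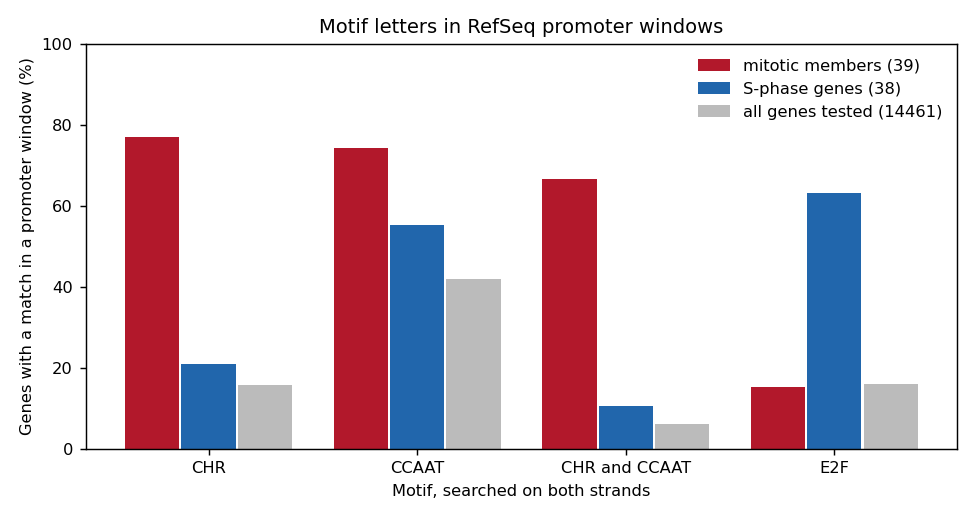
Share of genes (%) with the letters of each motif in a RefSeq promoter window, for 39 mitotic members, 38 S-phase genes and 14461 genes on the array; bars start at 0. CHR letters stand in 76.9% of the members and E2F letters in 63.2% of the S-phase genes.

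The deposited values are log2 ratios, gene by gene, of each array to both MPA arrays averaged on the linear scale. A value of 0 is thus the MPA level and -1 is 1 log2 unit below it, and levels cannot be compared between genes or with background. A fold change below is a difference of group means on this scale ± its standard error from limma, with 2 arrays a group. A gene is called where limma's p, adjusted over all 18161 genes, is under 0.05. Replicates differed with an SD of 0.39 to 0.56 over the probe sets, and array medians lay between -0.11 and 0.01. The RNA was from formalin-fixed tissue, and the 3′ minus 5′ log2 ratio of the Actb control probe sets was higher at the later times of MFP. It was -0.09 and 0.14 in saline tumours, -0.07 and 0.05 in MPA tumours, 0.20 and 0.13 after 6 h of MFP, 0.34 and 0.36 after 12 h, 0.35 and 0.50 after 24 h, and 0.47 and 0.59 after 48 h. For the Gapdh control the ratio was -0.05 and 0.04 in saline tumours, and 0.16 and -0.12 in MPA tumours. After MFP it was 0.10 and -0.06 at 6 h, and 0.28 and 0.28 at 12 h. At 24 h it was 0.42 and 0.55, and at 48 h 0.48 and 0.37, so its highest value was on a 24 h array. The part of these ratios in the results was not tested. In whole-tumour RNA, fewer dividing cells and less RNA of a gene per cell cannot be told apart.

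The mitotic genes stayed near their MPA level at 6 h of MFP, were lower in part at 12 h, reached their lowest values at 24 h and stood between 24 h and MPA at 48 h. The median over the 47 members was -0.09 and 0.09 on the MPA arrays, 0.19 and -0.14 after 6 h, -0.41 and -0.60 after 12 h, -2.14 and -1.50 after 24 h, and -1.08 and -1.28 after 48 h. Both arrays of 24 h lay below all others. Against MPA, 0 members were called lower at 6 h (0.942% of all genes were), 4 at 12 h (2.62% of all genes), 40 at 24 h (4.2%) and 24 at 48 h (6.02%). The last 2 counts were 6 and 1 with quantile normalization, and 11 and 2 with only the arrays of the 2 groups in the fit. None was called higher at any of the times, where 0.314%, 1.66%, 4.55% and 6.48% of all genes were called higher at 6 h, 12 h, 24 h and 48 h. The median log2 fold change was 0.07, -0.49, -1.72 and -1.03 at these times, and the median over all genes was 0.02, 0.02, -0.03 and 0.00. Of the 4 times, 24 h had the lowest mean in 41 members and 48 h in the other 6.

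**Figure D2:**
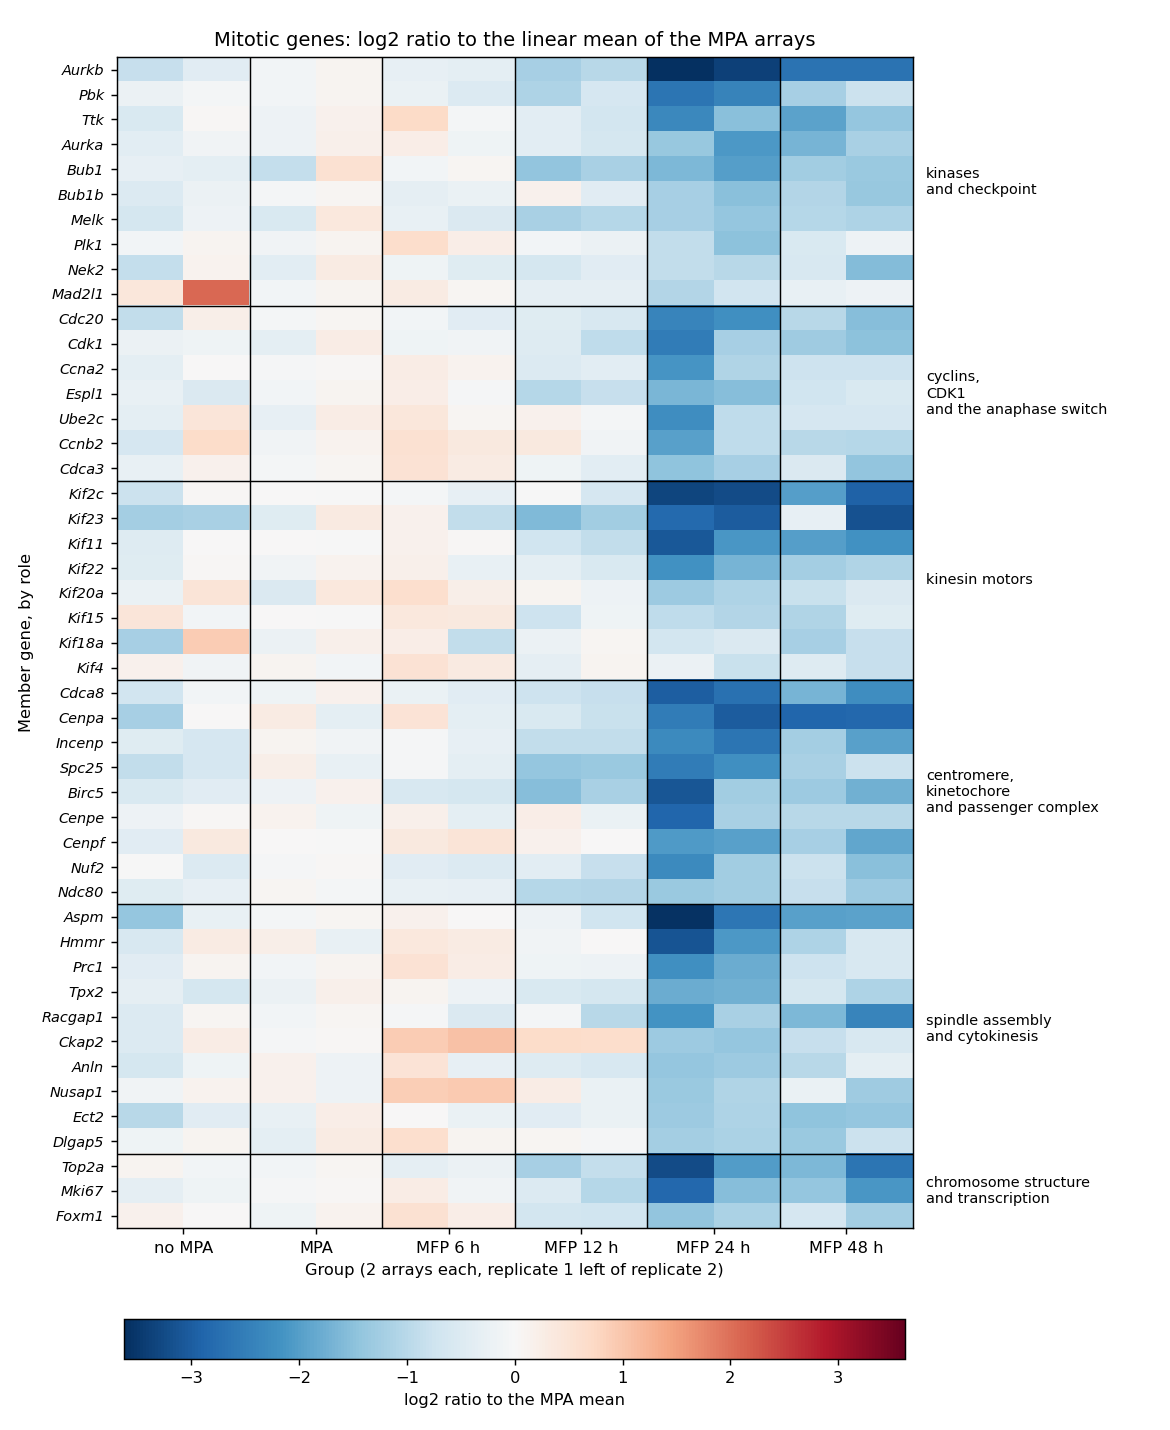
Log2 ratio to the MPA mean of the 47 members (rows, by role, lowest at 24 h first) in the 12 arrays (columns, 2 a group; blue lower, red higher). The columns of MFP 24 h are blue in all 47 rows, with medians of -2.14 and -1.50.

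At 6 h no role had a called member. Of the members 10 had both MFP arrays below both MPA arrays, where 22% of all genes did, and 13 had both above, where 23.1% of all genes did. The median over the 9 centromere and kinetochore genes was -0.17, with 7 below 0. That over the 10 spindle and cytokinesis genes was 0.23, with 7 above 0. Of all 18161 genes 8633 were below 0 and 9528 above. At an unadjusted p under 0.05 stood 2 members, Ckap2 (1.0 ± 0.25) and Nusap1 (0.93 ± 0.32), both microtubule-associated proteins and both above MPA, with adjusted p of 0.087 and 0.209. Of all genes 15% had an unadjusted p under 0.05. The exocrine pancreas list stood at medians of 6.53 and 5.22 at 6 h and 0.82 and -2.13 with MPA, with 1 of its 6 genes called higher.

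At 12 h of MFP 4 members were called lower than with MPA. They were Aurkb, the catalytic kinase of the passenger complex that corrects wrong attachments, Ndc80 and Spc25, which belong to 1 complex that grips microtubules at the kinetochore, and Espl1, separase, which cuts the cohesin ring at anaphase. The fold change was -1.10 ± 0.21 for Aurkb (adjusted p = 0.0216), -1.04 ± 0.21 for Ndc80 (0.0218), -1.35 ± 0.25 for Spc25 (0.0174) and -0.93 ± 0.20 for Espl1 (0.034). Both 12 h arrays lay below both MPA arrays in 32 members, where 23.3% of all genes did. The lowest role median, -0.78, was that of the centromere and kinetochore genes, and the one nearest 0, -0.24, that of the spindle and cytokinesis genes. Between 12 h and 6 h directly, 0 members were called lower, as were 0% of all genes, although 44 of 47 had a negative difference (median -0.55), where 49.9% of all genes did, and 16 an unadjusted p under 0.05, where 7.41% of all genes did. The calls at 12 h rest on every array of both groups: leaving out 1 array gave 2 (MPA replicate 1), 1 (MPA replicate 2) and 0 calls (either 12 h array). Aurkb and Spc25 have 1 other probe set each, which was not called at 12 h (-0.92 and -0.32).

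At 24 h the fall covered every role. All 47 members had both MFP arrays below both MPA arrays, where 27.3% of all genes did, and fold changes ran from -3.50 in Aurkb to -0.51 in Kif4. Called lower were 8 of 10 kinases and checkpoint genes, 6 of 7 genes of cyclins and the anaphase switch, 4 of 8 kinesins, 9 of 9 centromere and kinetochore genes, 10 of 10 spindle and cytokinesis genes and 3 of 3 genes of chromosome structure and transcription. The 7 not called were Mad2l1, Nek2, Ccnb2, Kif15, Kif18a, Kif20a and Kif4, with values between -1.44 (Ccnb2) and -0.51 (Kif4). Without MPA replicate 2 the count fell to 24, and without any other 1 array of the 2 groups it was 29 to 31. Markers of other cells moved in the same arrays. In the hepatocyte list 4 of the 6 measured genes were called higher, with medians of 4.07 and 4.44 at 24 h and 0.92 and -3.15 with MPA. Of the 6 exocrine pancreas genes 1 was called higher, with medians of 1.49 and 7.20 at 24 h and 0.82 and -2.13 with MPA. Of 8 macrophage genes 4 were called higher, and of 8 luminal epithelial genes 1 was lower and 1 higher, with medians of 0.26 and -0.23 at 24 h and 0.05 and -0.06 with MPA. The part of these cells in the fall was not tested.

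**Figure D3:**
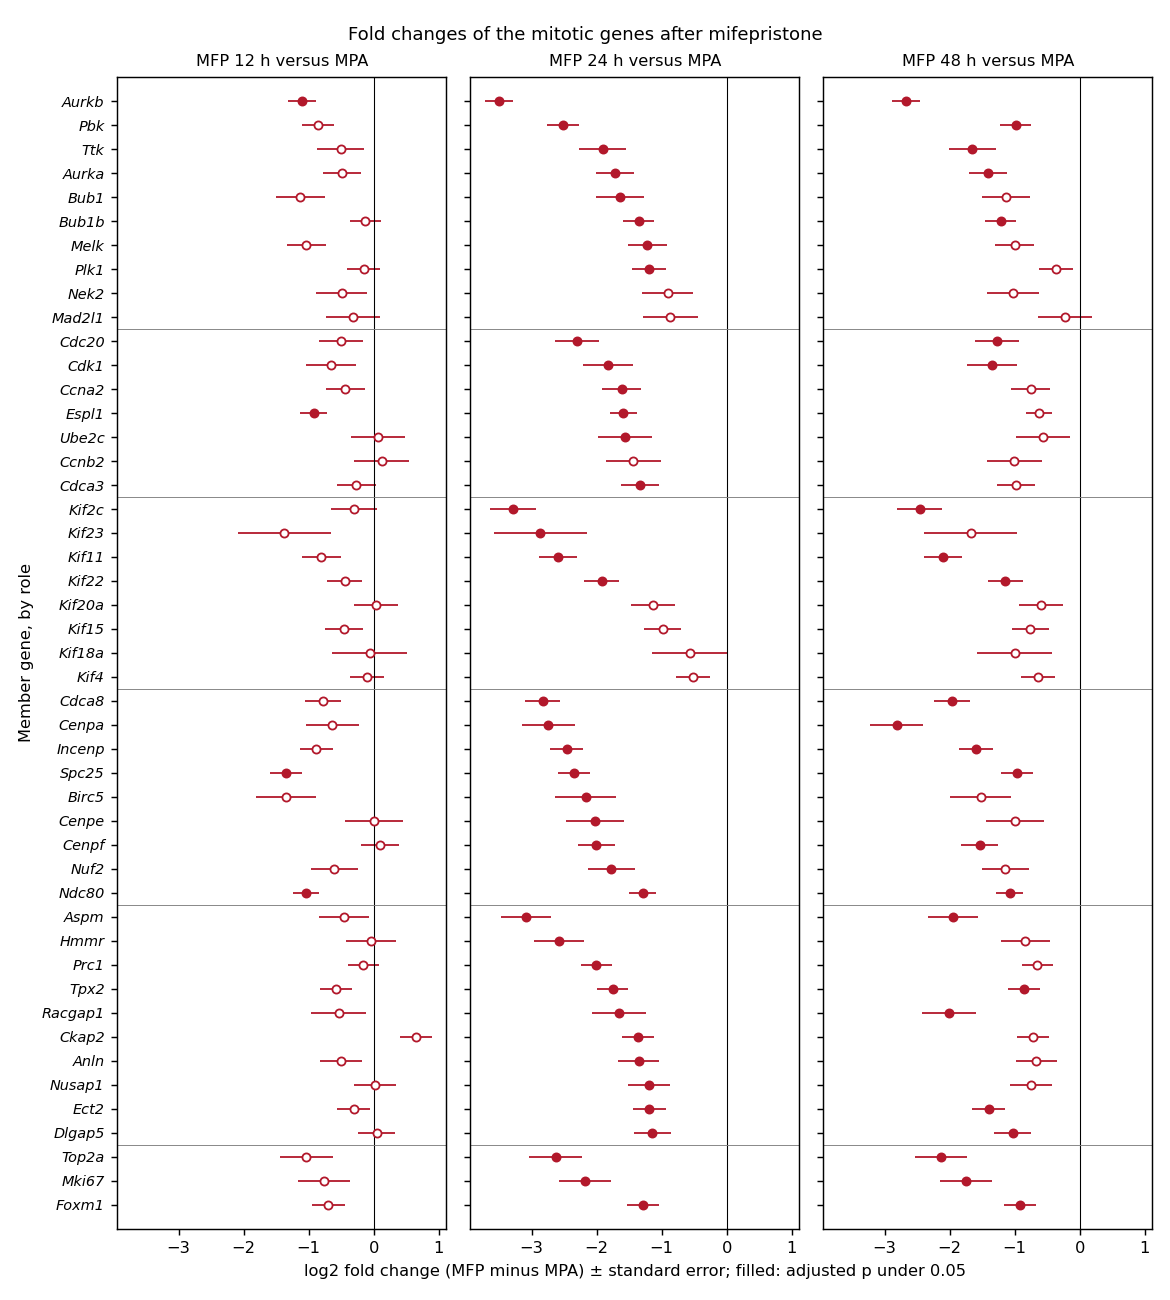
Log2 fold change of each member against MPA (x axis, MFP minus MPA; bars are ± 1 standard error) at 12 h, 24 h and 48 h of MFP, by role; filled points have an adjusted p under 0.05. Filled points number 4, 40 and 24 of 47, and all points lie left of 0 at 24 h and 48 h.

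Among the kinases and checkpoint genes Aurkb fell most. Its log2 ratios were -0.84 and -0.40 in saline tumours, -0.11 and 0.10 in MPA tumours, -0.28 and -0.36 after 6 h of MFP, -1.21 and -1.0 after 12 h, -3.62 and -3.39 after 24 h, and -2.68 and -2.68 after 48 h. The 24 h arrays were the lowest, the 48 h arrays next, and neither overlapped any array of another group. The fold change at 24 h was -3.50 ± 0.21 (adjusted p = 9.05e-05), an 11.3-fold lower signal. These values are of the probe set with the larger SD. The other probe set of Aurkb was also called lower at 24 h and fell less. Pbk, a mitotic kinase also named TOPK, had ratios of -0.21 and -0.08 in saline tumours, -0.11 and 0.10 in MPA tumours, -0.25 and -0.50 after 6 h of MFP, -1.11 and -0.62 after 12 h, -2.63 and -2.42 after 24 h, and -1.21 and -0.77 after 48 h. Its arrays at 24 h lay far below the rest, with a fold change of -2.52 ± 0.24 (0.000628). Ttk, or MPS1, which switches on the spindle checkpoint, had ratios of -0.55 and 0.04 in saline tumours, -0.19 and 0.16 in MPA tumours, 0.68 and -0.08 after 6 h of MFP, -0.38 and -0.67 after 12 h, -2.33 and -1.52 after 24 h, and -1.94 and -1.39 after 48 h. The 24 h and 48 h arrays overlapped each other and lay below all others, with -1.91 ± 0.36 at 24 h (0.0112).

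Mad2l1, the checkpoint protein MAD2 that holds CDC20 back, was the kinase or checkpoint gene that changed least at 24 h. Its ratios were 0.42 and 2.09 in saline tumours, -0.11 and 0.10 in MPA tumours, 0.31 and 0.06 after 6 h of MFP, -0.31 and -0.34 after 12 h, -1.06 and -0.69 after 24 h, and -0.28 and -0.18 after 48 h. One array without MPA stood more than 1 log2 unit above all other arrays, and the 24 h arrays were the lowest, by -0.87 ± 0.42 against MPA (0.246), which was not called. The other members of the role were Aurka, the kinase of the spindle poles (-1.72 at 24 h), the checkpoint kinases Bub1 (-1.64) and Bub1b (-1.36), Melk (-1.22) and the Polo kinase Plk1 (-1.19), all called, and the centrosome kinase Nek2 (-0.91), which was not.

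Of the genes of cyclins, CDK1 and the anaphase switch, Cdc20 fell most. Its ratios were -0.90 and 0.21 in saline tumours, -0.07 and 0.06 in MPA tumours, -0.10 and -0.41 after 6 h of MFP, -0.43 and -0.58 after 12 h, -2.40 and -2.22 after 24 h, and -1.01 and -1.53 after 48 h. No array of another group reached the 24 h arrays, and the fold change was -2.31 ± 0.33 (adjusted p = 0.00335). Its 3 probe sets differed in size at 24 h, from -0.27 to -2.31, and 1 of them was called. Cdk1, the kinase that drives entry into mitosis, had ratios of -0.20 and -0.14 in saline tumours, -0.35 and 0.28 in MPA tumours, -0.14 and -0.12 after 6 h of MFP, -0.47 and -0.92 after 12 h, -2.54 and -1.19 after 24 h, and -1.28 and -1.47 after 48 h. The 24 h arrays lay more than 1 log2 unit apart, on both sides of the 48 h arrays, and the fold change was -1.83 ± 0.39 (0.018). Ccna2, cyclin A2, had ratios of -0.36 and 0.02 in saline tumours, -0.05 and 0.05 in MPA tumours, 0.28 and 0.14 after 6 h of MFP, -0.49 and -0.39 after 12 h, -2.14 and -1.10 after 24 h, and -0.76 and -0.75 after 48 h. Its first 24 h array was again the lower, and the fold change was -1.62 ± 0.30 (0.0104).

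Espl1 was 1 of the genes already called at 12 h. Its ratios were -0.27 and -0.53 in saline tumours, -0.10 and 0.10 in MPA tumours, 0.24 and -0.04 after 6 h of MFP, -1.02 and -0.84 after 12 h, -1.65 and -1.54 after 24 h, and -0.72 and -0.55 after 48 h. The values stepped down at 12 h and again at 24 h with no overlap, to -1.59 ± 0.20 against MPA (0.00209), and the 48 h arrays lay above those of 12 h and 24 h. Cdca3, which helps to destroy the mitosis inhibitor WEE1, changed least in this role. It had ratios of -0.28 and 0.16 in saline tumours, -0.07 and 0.07 in MPA tumours, 0.52 and 0.30 after 6 h of MFP, -0.15 and -0.39 after 12 h, -1.46 and -1.21 after 24 h, and -0.54 and -1.43 after 48 h. The 48 h arrays lay far apart, while both 24 h arrays were low, by -1.33 ± 0.29 (0.0213). Ube2c, the ubiquitin enzyme of the anaphase-promoting complex, was called at -1.56, and Ccnb2, cyclin B2, was not at -1.44 (0.0646).

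Of the 8 kinesins, 4 were called lower at 24 h. Kif2c, or MCAK, which takes microtubules apart at centromeres, had ratios of -0.77 and 0.05 in saline tumours, 0.01 and -0.01 in MPA tumours, -0.06 and -0.30 after 6 h of MFP, -0.01 and -0.60 after 12 h, -3.34 and -3.24 after 24 h, and -2.0 and -2.92 after 48 h. Its 24 h arrays were the lowest, the 48 h arrays next, and the other arrays lay at least 1 log2 unit higher. The fold change at 24 h was -3.29 ± 0.35 (0.000959), and all 4 probe sets of the gene were called. Kif11, which pushes the spindle poles apart, had ratios of -0.46 and 0.01 in saline tumours, 0.0 and 0.0 in MPA tumours, 0.15 and 0.05 after 6 h of MFP, -0.71 and -0.90 after 12 h, -3.06 and -2.12 after 24 h, and -2.0 and -2.20 after 48 h. Both 24 h arrays and both 48 h arrays lay below -2 or at it, away from all others, with -2.59 ± 0.29 at 24 h (0.00122). Kif23, a motor of the central spindle, had ratios of -1.22 and -1.18 in saline tumours, -0.43 and 0.33 in MPA tumours, 0.15 and -0.89 after 6 h of MFP, -1.59 and -1.26 after 12 h, -2.80 and -3.02 after 24 h, and -0.31 and -3.14 after 48 h. Its 48 h arrays lay more than 2 log2 units apart, 1 at the MPA level and 1 as low as the 24 h arrays, and the fold change was -2.87 ± 0.71 at 24 h (0.0345).

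Kif4 was the member that changed least at 24 h. It had ratios of 0.16 and -0.13 in saline tumours, 0.10 and -0.11 in MPA tumours, 0.52 and 0.32 after 6 h of MFP, -0.31 and 0.09 after 12 h, -0.22 and -0.81 after 24 h, and -0.46 and -0.84 after 48 h. Its 12 h and 24 h arrays overlapped, and the fold change of -0.51 ± 0.26 was not called (0.275). Its promoter, shown above, holds CHR and CCAAT letters. Kif22 was called at -1.93. Kif20a (-1.14), Kif15 (-0.99) and Kif18a (-0.57) were below MPA on both arrays and not called.

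All 9 genes of the centromere, kinetochore and passenger complex were called lower at 24 h, with a median of -2.17. Cdca8 had ratios of -0.70 and -0.09 in saline tumours, -0.16 and 0.14 in MPA tumours, -0.24 and -0.42 after 6 h of MFP, -0.76 and -0.82 after 12 h, -2.99 and -2.69 after 24 h, and -1.69 and -2.26 after 48 h. The 12 h arrays were already apart from MPA, and the 24 h arrays were the lowest, by -2.83 ± 0.27 (0.000628). Incenp, the scaffold that activates Aurora B in the same complex, had ratios of -0.45 and -0.60 in saline tumours, 0.11 and -0.11 in MPA tumours, -0.04 and -0.31 after 6 h of MFP, -0.88 and -0.89 after 12 h, -2.30 and -2.64 after 24 h, and -1.24 and -1.97 after 48 h. It followed the same course to -2.46 ± 0.26 at 24 h (0.000899), and 4 of its 5 probe sets were called. Birc5, survivin, the remaining subunit, was at -2.17 (0.0196), so that all 4 genes of the passenger complex were called at 24 h.

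Cenpa, the histone variant that marks the centromere, had ratios of -1.20 and 0.01 in saline tumours, 0.29 and -0.36 in MPA tumours, 0.50 and -0.34 after 6 h of MFP, -0.54 and -0.80 after 12 h, -2.54 and -3.02 after 24 h, and -2.87 and -2.84 after 48 h. The 24 h and 48 h arrays overlapped and lay more than 1 log2 unit below all others, with fold changes of -2.74 ± 0.41 (0.00407) and -2.82 ± 0.41 (0.00461). Spc25 had ratios of -0.90 and -0.62 in saline tumours, 0.22 and -0.26 in MPA tumours, -0.04 and -0.34 after 6 h of MFP, -1.40 and -1.34 after 12 h, -2.52 and -2.23 after 24 h, and -1.18 and -0.79 after 48 h. The 12 h arrays lay apart from MPA and 6 h, the 24 h arrays were lowest, by -2.35 ± 0.25 (0.000885), and the 48 h arrays lay above those of 12 h. Ndc80 had ratios of -0.43 and -0.28 in saline tumours, 0.06 and -0.06 in MPA tumours, -0.27 and -0.30 after 6 h of MFP, -1.03 and -1.06 after 12 h, -1.33 and -1.26 after 24 h, and -0.84 and -1.32 after 48 h. It was near -1 or lower on all arrays from 12 h on but 1 of 48 h, and its 24 h value of -1.29 ± 0.21 (0.00505) was the smallest change of the role. Nuf2, the partner of Ndc80, was at -1.78 at 24 h and -0.61 at 12 h, and the kinetochore proteins Cenpe and Cenpf were at -2.02 and -2.01 at 24 h and at 0.01 and 0.10 at 12 h.

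All 10 genes of spindle assembly and cytokinesis were called lower at 24 h. Aspm, which focuses microtubules at the spindle poles, had ratios of -1.39 and -0.27 in saline tumours, -0.08 and 0.08 in MPA tumours, 0.16 and 0.0 after 6 h of MFP, -0.19 and -0.72 after 12 h, -3.57 and -2.62 after 24 h, and -1.98 and -1.93 after 48 h. The 24 h arrays were lowest and the 48 h arrays next, without overlap, and the fold change at 24 h was -3.09 ± 0.39 (0.00199). Hmmr, a microtubule binder that was first known as a hyaluronan receptor, had ratios of -0.58 and 0.31 in saline tumours, 0.22 and -0.26 in MPA tumours, 0.39 and 0.29 after 6 h of MFP, -0.14 and 0.02 after 12 h, -3.12 and -2.08 after 24 h, and -1.13 and -0.59 after 48 h. Its 6 h and 12 h arrays lay in or near the range of MPA, both 24 h arrays were more than 1 log2 unit below it, and the fold change was -2.58 ± 0.38 (0.00378). Prc1, which bundles microtubules of the central spindle, had ratios of -0.40 and 0.11 in saline tumours, -0.09 and 0.09 in MPA tumours, 0.52 and 0.27 after 6 h of MFP, -0.16 and -0.17 after 12 h, -2.21 and -1.80 after 24 h, and -0.74 and -0.57 after 48 h. It too was near MPA at 12 h, and its 24 h arrays were the lowest, with -2.0 ± 0.24 (0.00139).

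Dlgap5, or HURP, which steadies the microtubules that hold chromosomes, had the smallest change of the role. It had ratios of -0.17 and 0.10 in saline tumours, -0.37 and 0.29 in MPA tumours, 0.60 and 0.11 after 6 h of MFP, 0.06 and -0.04 after 12 h, -1.22 and -1.14 after 24 h, and -1.35 and -0.79 after 48 h. The 24 h and 48 h arrays overlapped below all others, with -1.14 ± 0.29 at 24 h (0.0346). The other 6 ran from -1.75 (Tpx2, which activates Aurora A) to -1.19 (Ect2, which starts the cleavage furrow). Ckap2 stood above MPA on both arrays at 6 h and 12 h and at -1.36 at 24 h.

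Top2a, the topoisomerase that untangles chromosomes, had ratios of 0.10 and -0.11 in saline tumours, -0.09 and 0.08 in MPA tumours, -0.32 and -0.21 after 6 h of MFP, -1.20 and -0.88 after 12 h, -3.24 and -2.03 after 24 h, and -1.62 and -2.65 after 48 h. All arrays from 12 h on lay below all others, the 24 h and 48 h arrays overlapped, and the fold change was -2.63 ± 0.40 at 24 h (0.00436). Mki67, which coats mitotic chromosomes and is used as a marker of dividing cells, had ratios of -0.32 and -0.17 in saline tumours, -0.05 and 0.05 in MPA tumours, 0.27 and -0.14 after 6 h of MFP, -0.51 and -1.02 after 12 h, -2.83 and -1.53 after 24 h, and -1.40 and -2.10 after 48 h. Its 24 h and 48 h arrays also overlapped, with -2.18 ± 0.40 (0.00917). Foxm1, a transcription factor of G2 and M phase genes, had ratios of 0.16 and 0.01 in saline tumours, -0.14 and 0.13 in MPA tumours, 0.55 and 0.24 after 6 h of MFP, -0.67 and -0.73 after 12 h, -1.43 and -1.15 after 24 h, and -0.62 and -1.23 after 48 h. The 12 h, 24 h and 48 h arrays lay below MPA, with -1.28 ± 0.25 at 24 h (0.0118), which was called on 1 of its 4 probe sets.

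The step from 12 h to 24 h was tested directly. Every member had a negative difference (median -1.23), and 17 of 47 were called lower, where 0.584% of all genes were. Of the hepatocyte genes 4 of 6 were called higher over the same step, and of the macrophage genes 0 of 8. All 8 macrophage genes still had a positive difference (median 0.95), as had all 7 fibroblast genes (median 1.11, 0 called). Of the 8 luminal genes 7 had a negative difference (median -0.38, 0 called). The part of these markers was not tested. Both 24 h arrays lay below both 12 h arrays in 45 members, where 27% of all genes did; the exceptions were Birc5 and Kif4. The largest steps were in Kif2c (-2.98 ± 0.35, adjusted p = 0.00139), Aspm (-2.63 ± 0.39, 0.00437), Hmmr (-2.54 ± 0.38, 0.00509) and Aurkb (-2.40 ± 0.21, 0.000414). Those of Ndc80 (-0.25 ± 0.21) and Melk (-0.18 ± 0.30) were among the smallest. By role, 5 of 9 centromere and kinetochore genes, 5 of 10 spindle and cytokinesis genes, 3 of 8 kinesins, 3 of 10 kinases and checkpoint genes, 1 of 7 in the anaphase group and 0 of 3 in the last were called. Without either of the 12 h arrays 8 were called, and with every probe set tested on its own 9. Of the 15 called members with several probe sets, 6 had another one called, Kif2c, Aspm and Hmmr among them, and 9 did not, Aurkb (-1.17) among them.

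The S-phase genes, a list of 50 DNA replication genes of which 47 were measured, moved earlier. Against MPA 2 were called lower after 6 h (0.942% of all genes were), 24 after 12 h (2.62%), 23 after 24 h (4.2%) and 13 after 48 h (6.02%). The S-phase genes had median fold changes of -0.67, -1.11, -1.06 and -0.86 at these times. Their median on each array was -0.13 and 0.12 with MPA, -0.56 and -0.71 after 6 h, -1.15 and -1.25 after 12 h, -1.19 and -1.05 after 24 h, and -0.78 and -0.80 after 48 h. The members' median minus the S-phase median was 0.04 and -0.03 with MPA, 0.76 and 0.56 after 6 h, 0.74 and 0.64 after 12 h, -0.95 and -0.45 after 24 h, and -0.30 and -0.48 after 48 h. The mitotic median thus stood above the S-phase median on all arrays of 6 h and 12 h and below it on all arrays of 24 h and 48 h. At 12 h the members' median change was 28.8% of that at 24 h, and the S-phase median 105%. Between 24 h and 12 h directly, 17 of 47 members but 0 of 47 S-phase genes were called lower, where 0.584% of all genes were. The medians were -1.23 and 0.11, and 7 S-phase genes had an unadjusted p under 0.05, as had 15.8% of all genes. The lowest mean of an S-phase gene belonged to 6 h in 1 gene, to 12 h in 23, to 24 h in 19 and to 48 h in 4. These comparisons share their arrays, and the difference between the lists was given no test.

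**Figure D4:**
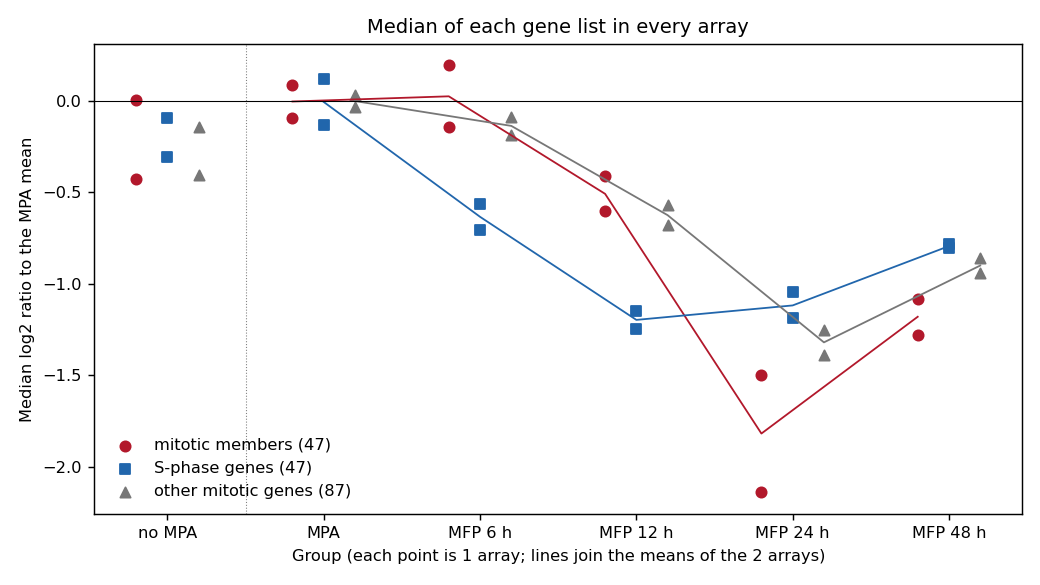
Median log2 ratio to the MPA mean (y axis) of 3 gene lists on each of the 12 arrays (points) by group; lines join the means of the 2 arrays. The S-phase medians are at -0.56 and -0.71 by 6 h, while the mitotic medians are at 0.19 and -0.14 there and reach -2.14 and -1.50 at 24 h.

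The 6 S-phase genes with the largest falls at 12 h are given array by array. They were picked by that fall, so low values at 12 h and higher ones at 24 h may follow from the choice. Cdc6, which loads the replicative helicase, had ratios of -0.03 and -0.85 in saline tumours, -0.02 and 0.02 in MPA tumours, -1.70 and -1.41 after 6 h of MFP, -3.38 and -3.99 after 12 h, -4.44 and -3.20 after 24 h, and -3.26 and -2.39 after 48 h. Cdc7, the kinase that fires origins, had -0.32 and -0.53 in saline tumours, -0.28 and 0.23 in MPA tumours, -1.94 and -1.86 after 6 h of MFP, -2.75 and -3.40 after 12 h, -2.43 and -2.76 after 24 h, and -2.42 and -4.0 after 48 h. Both were already more than 1 log2 unit below MPA at 6 h, without a call (0.131 and 0.0731). Rrm2, a subunit of ribonucleotide reductase, had 0.12 and -0.60 in saline tumours, 0.09 and -0.10 in MPA tumours, -1.06 and -1.38 after 6 h of MFP, -3.32 and -2.70 after 12 h, -3.39 and -2.20 after 24 h, and -1.36 and -1.18 after 48 h. Its 12 h and 24 h arrays overlapped, unlike those of 45 mitotic members. The helicase subunits were lowest at 12 h too on average: Mcm3 had -0.31 and -1.20 in saline tumours, -0.39 and 0.31 in MPA tumours, -1.64 and -1.19 after 6 h of MFP, -2.80 and -2.38 after 12 h, -2.63 and -1.51 after 24 h, and -1.68 and -1.67 after 48 h. For Mcm5 the ratios were 0.41 and -0.37 in saline tumours, -0.09 and 0.08 in MPA tumours, -0.83 and -0.84 after 6 h of MFP, -1.96 and -2.91 after 12 h, -2.46 and -1.43 after 24 h, and -1.17 and -1.52 after 48 h. For Mcm4 they were -0.35 and -0.69 in saline tumours, -0.46 and 0.35 in MPA tumours, -0.81 and -0.83 after 6 h of MFP, -2.02 and -1.97 after 12 h, -1.40 and -1.24 after 24 h, and -0.77 and -0.99 after 48 h. Their changes between 24 h and 12 h were 0.52 ± 0.42, 0.49 ± 0.40 and 0.68 ± 0.26, all above 0 and none called.

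A wider list of 90 mitotic genes outside the 47, of which 87 were measured, lay between the 2 courses. Called lower were 3 after 6 h (0.942% of all genes were), 17 after 12 h (2.62%), 52 after 24 h (4.2%) and 38 after 48 h (6.02%). The list had medians of -0.09, -0.61, -1.30 and -0.89 at these times, and 13 were called lower between 24 h and 12 h (0.584% of all genes). Its largest falls at 24 h were in the kinesin Kif18b, with ratios of -0.78 and -0.02 in saline tumours, -0.01 and 0.01 in MPA tumours, 0.15 and -0.11 after 6 h of MFP, -0.46 and -0.73 after 12 h, -3.18 and -2.31 after 24 h, and -1.30 and -1.95 after 48 h. Trip13, the ATPase that recycles MAD2 complexes, had -0.44 and -0.35 in saline tumours, -0.17 and 0.15 in MPA tumours, -1.55 and -1.63 after 6 h of MFP, -2.0 and -2.33 after 12 h, -2.63 and -2.85 after 24 h, and -1.68 and -1.54 after 48 h. Unlike the 47 members it was called at 6 h, with -1.58 ± 0.21 (0.0145). Cdca2, a phosphatase adaptor of chromosomes, had -0.35 and 0.01 in saline tumours, 0.08 and -0.09 in MPA tumours, 0.85 and -0.17 after 6 h of MFP, -0.58 and -1.04 after 12 h, -2.59 and -2.81 after 24 h, and -1.91 and -1.18 after 48 h. Cep55, of the last step of cytokinesis, had -0.59 and -0.52 in saline tumours, -0.21 and 0.18 in MPA tumours, -0.21 and -0.45 after 6 h of MFP, -0.66 and -0.74 after 12 h, -2.89 and -2.31 after 24 h, and -2.20 and -1.88 after 48 h. Arrays of Kif18b, Cdca2 and Cep55 lay between -0.46 and -1.04 at 12 h and more than 2 log2 units below MPA at 24 h.

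At 48 h of MFP the members stood between the 24 h and MPA levels. The mean was above that of 24 h and below that of MPA in 41 of 47, and the median change against MPA was 59.9% of that at 24 h. Both 48 h arrays lay below both MPA arrays in 45 members, where 27.3% of all genes did, with Kif23 and Kif20a as exceptions. Called lower were 24, comprising 5 of 10 kinases and checkpoint genes, 2 of 7 in the anaphase group, 3 of 8 kinesins, 6 of 9 centromere and kinetochore genes, 5 of 10 of spindle and cytokinesis, and 3 of 3 of chromosome structure and transcription. The lowest were Cenpa (-2.82 ± 0.41), Aurkb (-2.68 ± 0.21, 0.000702), Kif2c (-2.46 ± 0.35, 0.00401) and Top2a (-2.14 ± 0.40, 0.0106). The other probe sets of Cenpa (-0.60 and -0.89) and Aurkb (-0.83) were not called. Of the 19 called members with several probe sets, 8 had another one called and 11 did not. Plk1 (-0.37 ± 0.26) and Mad2l1 (-0.23 ± 0.42) were the nearest to MPA. The count was 9 without MPA replicate 1, 13 without MPA replicate 2, 13 without 48 h replicate 2 and 17 without 48 h replicate 1.

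The difference between 48 h and 24 h itself was called in 5 members, all higher at 48 h, where 0.622% of all genes were. They were Hmmr (1.74 ± 0.38, adjusted p = 0.0456), Pbk (1.53 ± 0.24, 0.00881), Spc25 (1.39 ± 0.25, 0.015), Prc1 (1.35 ± 0.24, 0.0145) and Espl1 (0.96 ± 0.20, 0.039). The median over the 47 was 0.54 and over all genes 0.04. Both 48 h arrays lay above both 24 h arrays in 24 members, where 23.8% of all genes did. The 6 members with a mean at 48 h below that at 24 h were Kif18a (-0.43), Racgap1 (-0.35), Ect2 (-0.21), Kif4 (-0.13), Nek2 (-0.11) and Cenpa (-0.07), and none was called. Of the S-phase genes 1 and of the other mitotic genes 3, Trip13 among them, were called higher. Hmmr, Prc1 and Spc25 have other probe sets, and none of these was called. Hepatocyte genes were lower at 48 h than at 24 h by a median of -4.64 (3 of 6 called), with array medians of -0.07 and -0.63 at 48 h and 4.07 and 4.44 at 24 h. All 8 macrophage genes had a positive difference (median 1.02), and 0 were called. The part of these markers was not tested. The count of 5 was 1 without 24 h replicate 1, 7 without 24 h replicate 2, 2 without 48 h replicate 1 and 1 without 48 h replicate 2.

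Markers of other cells moved at 48 h too. Called higher against MPA were 8 of 8 macrophage genes, 6 of 7 fibroblast genes, 3 of 4 measured neutrophil genes and 6 of 6 exocrine pancreas genes, and called lower were 3 of 8 luminal epithelial genes. The macrophage median was 2.09 and 2.11 at 48 h and -0.80 and 0.51 with MPA, and the luminal median -0.95 and -0.25 at 48 h and 0.05 and -0.06 with MPA. The skeletal muscle median was high on 48 h replicate 1 alone, at 3.80 against 0.22 on replicate 2, and 0.09 and -0.10 with MPA. Of its 6 genes 0 were called. With each array set to the median of the 8 luminal genes, a setting chosen after seeing the data, 4 members were called lower at 48 h against MPA, 23 at 24 h, and 9 were called higher at 48 h against 24 h. Ratios cannot show whether a marker is absent from these tumours, so the tissue label could not be checked by level.

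In the saline tumours no change of a member was called against MPA. The members' median was -0.43 and 0.01 without MPA and -0.09 and 0.09 with MPA. The difference was negative in 37 of 47 members (median -0.21), among them 9 of 9 centromere and kinetochore genes, and in 8895 of all 18161 genes. As no gene on the array was called, the lack of calls cannot show that the members were unchanged. In this comparison 0 members were called lower, as were 0% of all genes, and 0 were called higher. At an unadjusted p under 0.05 were 4 members, where 6.57% of all genes were: Aurkb (-0.62 ± 0.21), Spc25 (-0.74 ± 0.25) and Ect2 (-0.69 ± 0.25) below MPA, and Mad2l1 (1.26 ± 0.42) above it. Both arrays lay below both MPA arrays in 12 members, where 17.3% of all genes did.

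Against these saline tumours, MFP at 48 h gave 19 members called lower, where 5.03% of all genes were, with a median of -0.93 and every member below 0. They were 6 of 10 kinases and checkpoint genes, 3 of 8 kinesins, 5 of 9 centromere and kinetochore genes, 2 of 10 of spindle and cytokinesis, 3 of 3 of chromosome structure and transcription, and 0 of 7 of the anaphase group. The largest were Cenpa (-2.26 ± 0.41, adjusted p = 0.00741), Top2a (-2.14 ± 0.40, 0.00845), Kif2c (-2.10 ± 0.35, 0.00553) and Aurkb (-2.06 ± 0.21, 0.00146). The other probe sets of Cenpa (-0.68 and -0.74) and Aurkb (-0.45) were not called. Mad2l1 was called here (-1.49 ± 0.42, 0.0448) and at 48 h against MPA was not; the saline array that stood above the rest enters this value. The count was 10 without saline replicate 1, 5 without saline replicate 2, 15 without 48 h replicate 1 and 12 without 48 h replicate 2. It was 2 with each array set to the luminal median and 1 with quantile normalization. Markers of other cells differed here too: 8 of 8 macrophage, 6 of 7 fibroblast, 4 of 4 neutrophil and 6 of 6 exocrine pancreas genes were called higher, and 5 of 8 luminal genes lower (median -1.13). Their part was not tested. Saline was measured at 48 h only.

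Probe sets of 1 gene differed in size. The 47 genes have 105 probe sets, of which 60 were called lower at 24 h against MPA, where 3.61% of all probe sets were, and none was called higher. Of 30 genes with several probe sets, 6 had all of them called at 24 h, 22 some and 2 none. The one used for a gene had the largest SD over the 12 arrays, which favours larger changes. Of the 28 called members with several, 13 had another one called at 24 h and 15 did not, Cenpa, Cdca8 and Spc25 among them. With the mean of a gene's probe sets, 39 members were called at 24 h.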

How the data were processed

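Tumour RNA was measured on 12 Affymetrix Mouse Genome 430 2.0 arrays (200 ng each, RNeasy FFPE kit, per the labels' protocols). GCRMA (version not given in the sources used here) was used, per the submitters' processing notes. Deposited log2 values of 45101 probe sets are ratios to MPA: in 45099, both MPA arrays taken to the linear scale have a mean of 1 within 0.0001. Log2 intensities had been foreseen; the test fits both. The number of arrays limits precision, and signal over background is unknown.

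Probe sets with 1 symbol (34945) gave 18161 genes; each was read from its probe set of largest SD over the 12 arrays, groups ignored. limma 3.58.1 in R 4.3.3 fitted a mean for each of the 6 groups (6 residual and 4.21 prior degrees of freedom), with Benjamini-Hochberg adjustment over all genes at 0.05. Members and lists were chosen with earlier results of these data known. Some genes of these lists are not reported here. Values on every array are printed for the 3 largest and the smallest changes at 24 h in each role, members called at 6 h, 12 h or between 48 h and 24 h, the 6 largest S-phase falls at 12 h and the 4 largest other mitotic falls at 24 h. Alternatives were another choice of probe set, centring, quantile normalization, array weights, a robust prior, a filter on SD, fits of 2 groups alone and leaving out each array. The scripts were tested on simulated data. RefSeq promoter windows were matched by symbol.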

Additional observations from a re-analysis of the deposited data

Results flagged for a closer look

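Successive MFP times differed, by the direct test between them in limma, in these members (adjusted p under 0.05, 2 arrays a time). Between 24 h and 12 h the log2 difference was -2.40 for Aurkb, -1.23 for Bub1b and -1.66 for Pbk among the kinases and checkpoint genes, and -1.80 for Cdc20 in the anaphase group. Among the kinesins it was -1.79 for Kif11, -2.98 for Kif2c and -1.48 for Kif22. Among the centromere and kinetochore genes it was -2.11 for Cenpa, -2.03 for Cenpe, -2.10 for Cenpf, -1.58 for Incenp and -2.05 for Cdca8, and among those of spindle and cytokinesis -1.17 for Tpx2, -2.63 for Aspm, -1.84 for Prc1, -2.54 for Hmmr and -2.01 for Ckap2. Cenpe's 24 h arrays lay apart, at -2.87 and -1.18. Between 48 h and 24 h the difference was 1.53 for Pbk, 0.96 for Espl1, 1.39 for Spc25, 1.35 for Prc1 and 1.74 for Hmmr.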

How the results depend on the processing

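The 0 calls at 6 h, without MPA and between 12 h and 6 h held under every alternative run. Quantile normalization gave 0 members called lower at 12 h, 6 at 24 h, 1 at 48 h, 1 at 48 h against no MPA and 2 at 24 h against 12 h. It gave 0 higher at 48 h against 24 h. The SD over genes was 0.29 and 0.30 on the MPA arrays and 0.44 to 0.88 on the others, and this method gives every array the same spread. The part of this in the lower counts was not tested. Fits of the 2 compared groups alone, with fewer arrays, gave 0, 11, 2 and 12 members lower at 12 h, 24 h, 48 h and 48 h against no MPA, and 0 higher at 48 h against 24 h. Centring on luminal genes, chosen after seeing the data, gave 2 members lower at 12 h, 23 at 24 h and 4 at 48 h. It gave 2 lower at 48 h against no MPA, 5 lower at 24 h against 12 h, and 9 higher at 48 h against 24 h. This centring moves every gene on an array by the same amount. The luminal median minus that of MPA was 0.302 without MPA and -0.60 at 48 h of MFP. All differences at 48 h against no MPA thus rose alike. Among members called with or without this centring, the sign turned in Bub1b (0.054), Ndc80 (0.18) and Pbk (0.056) in that comparison. Members called in neither fit could turn sign too and are not listed. At 48 h against 24 h, centring on array medians and array weights each gave 3, and every probe set on its own gave 9 lower at 24 h against 12 h. Leaving out 1 array gave 0 to 2 lower at 12 h, 24 to 31 at 24 h, 9 to 17 at 48 h, 5 to 15 at 48 h against no MPA and 8 to 18 at 24 h against 12 h, and 1 to 7 higher at 48 h against 24 h. No paired analysis was possible because the labels give no replicate numbers. Replicates 1 and 2 of a group are named here by the order of their arrays in the series. Signal over background is unknown for every gene.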
